A study of Homo sapiens with 4 samples.

Results

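Cytoplasmic ribosomal protein genes and their processed pseudogenes were followed through 2 lists of m6A peaks from RPMI-8226, a long-established line of human myeloma cells. Parent genes were taken by symbol (RPL or RPS with a number, the RPLP stalk genes and RPSA, paralogues such as RPL7L1 included), and pseudogenes by the same symbols followed by P and a number. The 2 kinds were kept apart. Members made up 66 of the 22448 shNC peaks and 79 of the 24626 shALKBH5 peaks. Parent genes had 37 peaks in 27 genes for shNC and 42 peaks in 32 genes for shALKBH5, or 35 genes in either list. Pseudogenes had 29 peaks in 25 pseudogenes for shNC and 37 peaks in 29 pseudogenes for shALKBH5, or 33 in either list.

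In m6A-seq, fragments of poly(A) RNA are pulled down with an antibody against N6-methyladenosine and sequenced beside the RNA before pull-down. Cells received by lentivirus a hairpin called shNC or one that targets ALKBH5, an enzyme that erases m6A from RNA, and each condition had 1 immunoprecipitated (IP) and 1 input library. All 4 libraries came from the same line, nothing was replicated, and no test between conditions could be made. Each peak's fold (IP over input) and p come from the authors' deposited table and serve only to describe or rank peaks within 1 list. The lists hold no RNA level, so neither the knockdown nor the abundance of any member was checked. Of 10 plasma cell markers, 7 had a peak in both lists, while JCHAIN, SLAMF7 and TNFRSF17 had none, and a missing peak says nothing about the RNA level. Among markers of other cell types, 1 of 5 T and NK cell genes, 3 of 5 myeloid genes and 2 of 4 stromal genes had a peak in either list. Over all RefSeq protein-coding genes, 44.4% had an shNC peak and 47.1% an shALKBH5 peak, and no cell type is concluded from the marker counts.

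Ribosomal proteins are the protein subunits of the small (RPS) and large (RPL) ribosomal subunits, and their mRNAs are among the most abundant in a growing cell, plasma cell tumours included. Most of these mRNAs are short, and their 5′ end is typically a terminal oligopyrimidine (TOP) tract, a C followed by a run of C and U letters through which mTOR controls their translation. Retrotransposition of these mRNAs has scattered processed pseudogenes over the genome, which lack introns and stay close in sequence to the parent mRNA. How reads that align equally well to a gene and its copies were treated is not stated in any source read here, so all members are uncertain as to which copy a read came from.

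The 5′ ends of the genes are shown first because 13 parent peaks in each list overlapped their gene and began before, or under 500 bp after, its start. Of these, 2 (shNC) and 5 (shALKBH5) covered the first base of the gene. Capitals mark the unbroken run of C and T letters that holds the first base of the gene, and each sequence runs from 40 bases before that base to the 20th base of the gene. The promoter of RPL8 is not shown.

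RPL24: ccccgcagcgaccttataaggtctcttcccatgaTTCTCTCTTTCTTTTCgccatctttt
RPS3A: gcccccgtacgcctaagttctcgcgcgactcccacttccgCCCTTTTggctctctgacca
RPS15: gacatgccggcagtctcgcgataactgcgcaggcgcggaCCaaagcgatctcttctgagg
RPS27L: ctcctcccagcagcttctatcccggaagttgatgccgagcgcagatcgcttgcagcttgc
RPL10: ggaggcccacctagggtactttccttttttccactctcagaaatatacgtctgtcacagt
RPS10: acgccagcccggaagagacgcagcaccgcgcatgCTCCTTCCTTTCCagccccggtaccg
RPS14: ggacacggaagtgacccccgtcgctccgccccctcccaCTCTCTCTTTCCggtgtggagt
RPL26: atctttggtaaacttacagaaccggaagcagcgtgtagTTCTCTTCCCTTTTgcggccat

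The sequences are from RefSeq on GRCh38.p14, at chr3:101686699-101686758 for RPL24 (minus strand), chr4:151099588-151099647 for RPS3A (plus), chr19:1438356-1438415 for RPS15 (plus) and chr15:63157458-63157517 for RPS27L (minus). Those of RPL10, RPS10, RPS14 and RPL26 lie at chrX:154398025-154398084 (plus), chr6:34426050-34426109 (minus), chr5:150449720-150449779 (minus) and chr17:8383174-8383233 (minus). RPL24, RPS27L and RPL10 (shALKBH5), RPS15 (shNC) and RPS3A (both lists) had a peak that covered the first base of the gene. RPS10, RPS14 and RPL26 had an shALKBH5 peak that began 4, 13 and 33 bases into the gene. Of parent peaks that overlap their RefSeq gene, 2 of 34 for shNC (5.88%) and 5 of 38 for shALKBH5 (13.2%) covered the first base. Over all such peaks the shares were 3.79% and 5.79%. With so few parent peaks, no excess is concluded from these shares. The run is 16 letters long in RPL24, 13 in RPS10, 12 in RPS14, 14 in RPL26 and 7 in RPS3A, while RPS15 has only 2 and RPL10 begins with A. RPS27L, a paralogue of RPS27 and a p53 target gene, begins with G and has no such run.

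Of 35 parent genes with a peak, 29 had an entry in the promoter table. A C followed by at least 4 further C or T letters stood at the first base of 18 of the 29 (62.1%), of 25 of 38 ribosomal protein genes without a peak (65.8%) and of 9 of 14 with a peak at the gene start (64.3%). Over all 27305 genes of the table the share was 4.04%, and over 69 mitochondrial ribosomal protein genes 8.7%. The motif was read on the gene's own strand from the outermost start that the promoter table lists, which is the edge of the RefSeq gene span for 27 of the 29 (not for RPL26L1 and RPL6). GGAC, the core of the commonest m6A consensus, lay in the first 50 bases of 6 of the 29 (20.7%) on the gene's strand and of 0 on the other strand, against 18.8% and 17.6% over the whole table. On the gene's strand it lay in 1 of the 14 with a peak at the gene start (7.14%) and 4 of the 38 without a peak (10.5%). On the other strand the counts were 0 of the 14 and 10 of the 38 (26.3%). A match describes letters in this window and is not a methylated site.

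A minority of parent genes had a listed peak. Of 84 ribosomal protein genes in RefSeq, 32.1% had an shNC peak and 38.1% an shALKBH5 peak, against 44.4% and 47.1% of all RefSeq protein-coding genes. Mitochondrial ribosomal protein genes, which serve the separate ribosome of the mitochondrion, stood at 71.4% and 72.7% of 77. By subunit, 24 of 52 RPL genes and 11 of 32 RPS genes had a peak in either list. The 49 genes without one included RPLP0, RPLP1 and RPLP2 of the stalk that recruits elongation factors, and RPL5 and RPL11, which carry the 5S RNA and bind MDM2. Of the 7 paralogues RPL7L1, RPL26L1, RPL3L, RPS27L, RPL10L, RPL22L1 and RPL39L, the first 4 had peaks, and of 19 genes linked to ribosomal stress and Diamond-Blackfan anaemia 6 did (RPS24, RPS10, RPL26, RPS28, RPS29 and RPL31).

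RPL7L1, RPL4 and RPL28 had strong peaks by p that overlapped between the lists. RPL7L1, a paralogue of RPL7, had the strongest, at chromosome 6, 42886455 to 42887472 for shNC (fold 12.1, log10 p -705). The shALKBH5 entry ran from the same base to 42887442 (fold 9.97, log10 p -509). It was also the widest parent peak, at 1018 and 988 bases. RPL4, a large subunit protein, had a peak ending at 66499484 on chromosome 15 in both lists, and its folds were 9.74 (shNC) and 6.08 (shALKBH5) at log10 p of -298 and -308. RPL28 was the parent gene with most separate peaks, at 3 sites in each list, and all 6 had a partner. In order along chromosome 19 the folds were 6.79, 3.35 and 7.95 (shNC) and 10.4, 24 and 8.73 (shALKBH5). The middle RPL28 peak, which starts at 55388613 in both lists, had the weakest p of the 3, at log10 values of -4.38 (shNC) and -12.3 (shALKBH5).

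Other strong parent peaks combined a very small p with a low fold. RPL36 had the same 211 bases in both lists, at chromosome 19, 5691517 to 5691727, at folds of 2.81 (shNC) and 2.57 (shALKBH5) and log10 p of -428 and -329. RPL29, on chromosome 3, had folds of only 1.4 and 1.84 with log10 p of -122 and -157, ending 149 and 60 bases before the gene end. RPL13 had the same borders in both lists, 89563024 to 89563413 on chromosome 16, with folds of 3.46 and 4.2. RPL13A, which also takes part in interferon-driven translational silencing, had folds of 2.72 and 2.71 at a spliced peak near its gene end. RPS24, a small subunit gene mutated in Diamond-Blackfan anaemia, had 2.17 and 2.13 at a spliced peak inside the gene, with log10 p of -87.1 and -95.1. Of all parent peaks, 10.8% for shNC and 14.3% for shALKBH5 had a fold below 3 together with a log10 p below -50, against 1.49% and 1.32% of all peaks. Where the log10 p was below -50, the median fold of the 8 and 10 parent peaks was 3.13 and 2.64, and that of all such peaks was 9.53 and 9.52. The input level at these genes is not in the lists, and its part in the low folds was not tested.

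**Figure D1:**
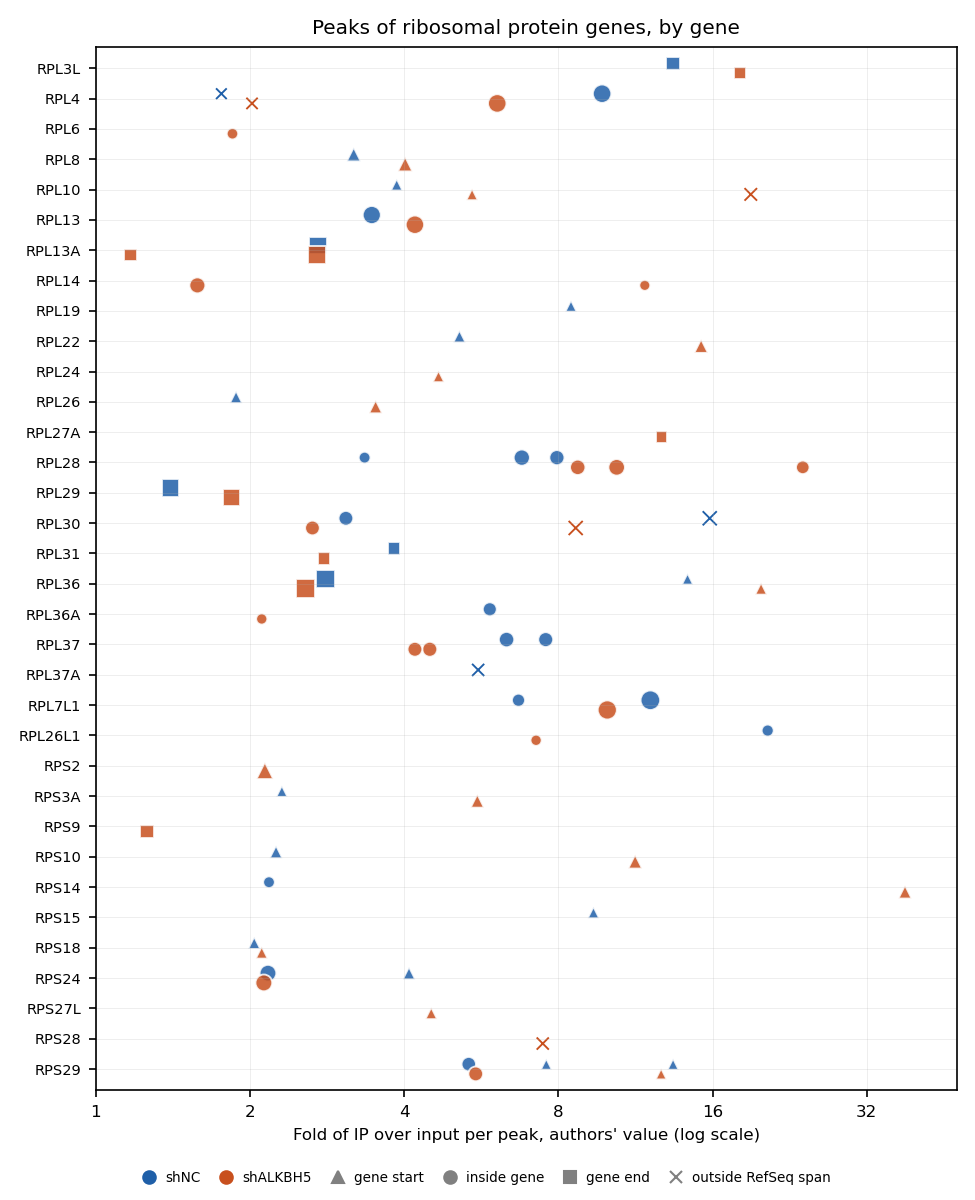
Fold of IP over input (x axis, log scale) of each shNC and shALKBH5 peak of the ribosomal protein genes named in the text (y axis). Symbol shape gives the position in the gene and larger symbols have a smaller p; the large symbols of RPL29, RPL13A and RPL36 sit at low folds, and RPS14 has the highest fold, 38, in the shALKBH5 list.

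A larger share of parent peaks than of all peaks lay at the gene start in either list, though for shNC this held only with the weaker peaks included. Start peaks are those that overlap the gene and whose 5′ edge falls before, or under 500 bp after, the RefSeq start. This held for 13 of 34 placed shNC peaks (38.2%, exact 95% interval 22.2 to 56.4%) and 13 of 38 placed shALKBH5 peaks (34.2%, 19.6 to 51.4%). Over all placed peaks the share was 11.4% for shNC and 14.5% for shALKBH5, and over mitochondrial ribosomal protein genes 9.72% and 19.3%. Parent genes with a placed peak are short, with a median span of 5926 bp for shNC and 6841 bp for shALKBH5, against 28893 and 28579 bp over all genes and 8015 and 7240 bp for the mitochondrial set, and the part of gene length in these shares was not tested. Among placed peaks with a log10 p below -10, 1 of 16 shNC parent peaks (6.25%, 0.158 to 30.2%) and 7 of 22 shALKBH5 parent peaks (31.8%, 13.9 to 54.9%) lay at the start, against 9.22% and 11.7% of all such peaks. Intervals cover counting error only, and peaks of 1 list are not independent replicates.

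Overlapping start peaks stood in both lists at the small subunit genes RPS3A, RPS10 and RPS18 and the large subunit genes RPL8, RPL22, RPL26, RPL36 and RPL10. RPS3A had identical borders, 151099573 to 151099751 on chromosome 4, across the first base of the gene, with folds of 2.31 and 5.56 and log10 p of -3.44 and -11.9. RPS10, mutated in some Diamond-Blackfan families, had a peak beginning 4 bases into the gene in both lists, at folds of 2.25 (shNC) and 11.3 (shALKBH5). The readthrough gene RPS10-NUDT3 had peaks on nearly the same bases, with folds of 2.11 and 6.51, so the RPS10 reads are listed under both names. RPL22, a large subunit protein lost in some lymphoid tumours, had folds of 5.13 and 15.2 and log10 p of -6.24 and -14. RPL26, which binds the p53 mRNA, had 1.88 and 3.52, and RPL8 had 3.19 and 4.02. RPS18 had folds of 2.04 and 2.11 and log10 p of -5.64 and -5.36. At RPL36 the start peak had a high fold and a weak p, 14.3 with a log10 p of -3.5 (shNC) and 19.9 with -5.1 (shALKBH5). The RPL10 start peaks, with folds of 3.87 and 5.43, lay wholly within peaks of the antisense locus AC245140.2, which had folds of 9.7 and 20.4, and since no source read here states the strand of the reads, the pair cannot be told apart. RPL10 had a further shALKBH5 entry whose first block lay 8110 bp upstream of the gene (fold 19, log10 p -7.08), again on bases of AC245140.2.

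Peaks without a counterpart were a larger share of parent peaks than of all peaks. For shNC none of these parent peaks had a log10 p below -10. For shALKBH5 3 of 13 did, against 472 of 4883 over all shALKBH5 peaks without a counterpart. A partner is a peak of the other list that shares at least 1 base, strand ignored. Parent peaks without one numbered 9 of 37 for shNC (24.3%, 11.8 to 41.2%), against 12.6% of all shNC peaks, and 13 of 42 for shALKBH5 (31%, 17.6 to 47.1%), against 19.8% of all shALKBH5 peaks. Both intervals include the share over all peaks, so neither excess in the full lists exceeded the counting error. The weakest shALKBH5 peaks were then dropped so that both lists were equally long. Parent peaks without a partner then numbered 11 of 37 for shNC (29.7%, 15.9 to 47%), against 15.2% of all peaks. For shALKBH5 they numbered 9 of 36 (25%, 12.1 to 42.2%), against 15.1%. At equal length the share was thus not larger for shALKBH5, and the shNC interval lay just above the share over all peaks. That interval counts each entry as independent, and the overlapping shNC start entries of RPS29, which have no partner, were counted separately. An excess was therefore not established. In the full lists, among parent peaks with a log10 p below -10, 0 of 17 for shNC and 3 of 23 for shALKBH5 had no partner, against 1.24% and 3.23% of all peaks of that strength. The 3 were at RPS2, RPL14 and RPS14.

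RPS2, a small subunit protein near the mRNA entry channel, had the strongest of them, 269 bases at 1964413 to 1964681 on chromosome 16, beginning 145 bases into the gene, at a fold of 2.14 at a log10 p of -103. RPL14 had a spliced peak inside the gene on chromosome 3 (fold 1.58, log10 p -54.7) and a second one further along (fold 11.8, log10 p -2.78). RPS14, a small subunit protein whose loss of 1 copy marks a myelodysplastic syndrome, had a peak in each list, at separate places. Its shNC peak lay inside the gene, 150443984 to 150444104 on chromosome 5 (fold 2.18, log10 p -4.3). Its shALKBH5 peak lay 13 bases into the gene, 150449516 to 150449726, with the highest fold of any parent peak, 38, and a log10 p of -10.4. The shNC list held no peak on those bases.

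Only shNC peaks were listed for 3 parent genes and only shALKBH5 peaks for 8, or 8.57% and 22.9% of the 35 parent genes with any peak, against 5.5% and 11.5% over genes of either list. The shNC-only genes were RPL19, RPS15 and RPL37A, with folds of 8.47, 9.37 and 5.58 and log10 p of -3.83, -4.02 and -5.68. The RPS15 peak crossed the first base of the gene and that of RPL19 began 89 bases into it, while that of RPL37A began 30406 bp after the RefSeq gene start, beyond the gene end. The shALKBH5-only genes were RPS2, RPL14, RPL24, RPL6, RPL27A, RPS9, RPS28 and RPS27L. RPL24 and RPS27L had peaks across the first base of the gene, with folds of 4.67 and 4.52 and log10 p of -4.15 and -4.66. RPS28 had a fold of 7.46 just upstream of its RefSeq start, in bases that also belong to NDUFA7, and RPL27A had 12.7 near its end. RPS9 and RPL6 had folds of 1.26 and 1.85, and the RPS9 peak was spliced to a block ending at 54231753 on chromosome 19, whereas RefSeq ends the gene at 54207647.

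Some genes had peaks in both lists that did not all pair up. RPS29 had start peaks in both lists that did not overlap, with folds of 13.4 and 7.58 for the 2 overlapping shNC entries and 12.7 for shALKBH5, all with a log10 p between -3.03 and -3.25. RPS24 had a start peak with a fold of 4.09, RPL7L1 a second peak with 6.69 and RPL13A a second peak with 1.17, the first 2 only for shNC and the last only for shALKBH5. For other genes with a shared peak the values of each list follow, and a difference between the lists was not tested. RPL36A stood at 5.88 with a log10 p of -15.6 (shNC) and at 2.11 with -3.23 (shALKBH5), with 209 and 90 bases listed. The paralogues RPL26L1 and RPL3L, the latter a muscle form of RPL3, had 20.5 and 7.24 and 13.4 and 18.1. RPL30 had a shared peak inside the gene with folds of 3.08 and 2.65, and another 924 bp upstream of its RefSeq start with 15.8 and 8.65. RPL37 had 2 overlapping entries in each list, with folds from 4.2 to 7.56. RPL31 had 3.82 and 2.79 near its end. RPL4 had a second, weak peak 565 bp upstream for shNC and 625 bp upstream for shALKBH5, with folds of 1.76 and 2.02, over bases of the antisense gene ZWILCH.

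**Figure D2:**
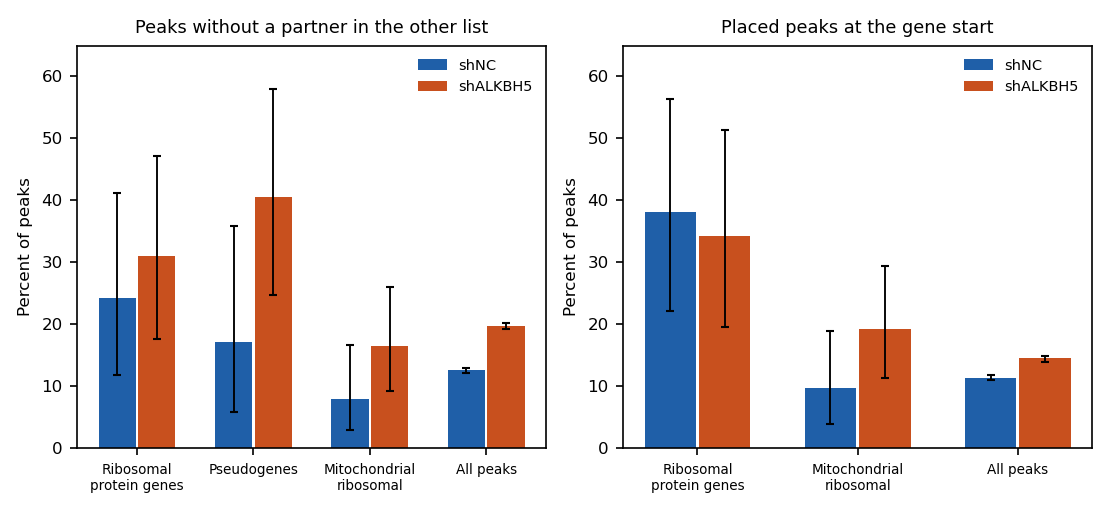
Percent of peaks without a partner (left, 37 and 42 parent, 29 and 37 pseudogene peaks) and percent of placed peaks at the gene start (right, 34 and 38 parent peaks), with exact 95% binomial intervals as error bars. Bars of ribosomal protein genes reach 24.3% and 31% on the left and 38.2% and 34.2% on the right, above the bars of all peaks.

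Pseudogene peaks had higher folds and weaker p-values than parent peaks. Their median fold was 8.62 (shNC) and 10.9 (shALKBH5), against 5.13 and 5.05 for parent peaks and 6.54 and 6.64 for all peaks. The median log10 p was -6.45 and -5.62 for pseudogenes, -8.13 and -11.2 for parents and -15.8 and -15.3 for all peaks. A fold of 10 or more was held by 44.8% and 62.2% of pseudogene peaks, 16.2% and 26.2% of parent peaks and 33.7% of all peaks in either list. Of 1936 ribosomal protein pseudogenes in RefSeq, 1.29% had a peak for shNC and 1.5% for shALKBH5, against 2.59% and 2.58% of all RefSeq pseudogenes.

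**Figure D3:**
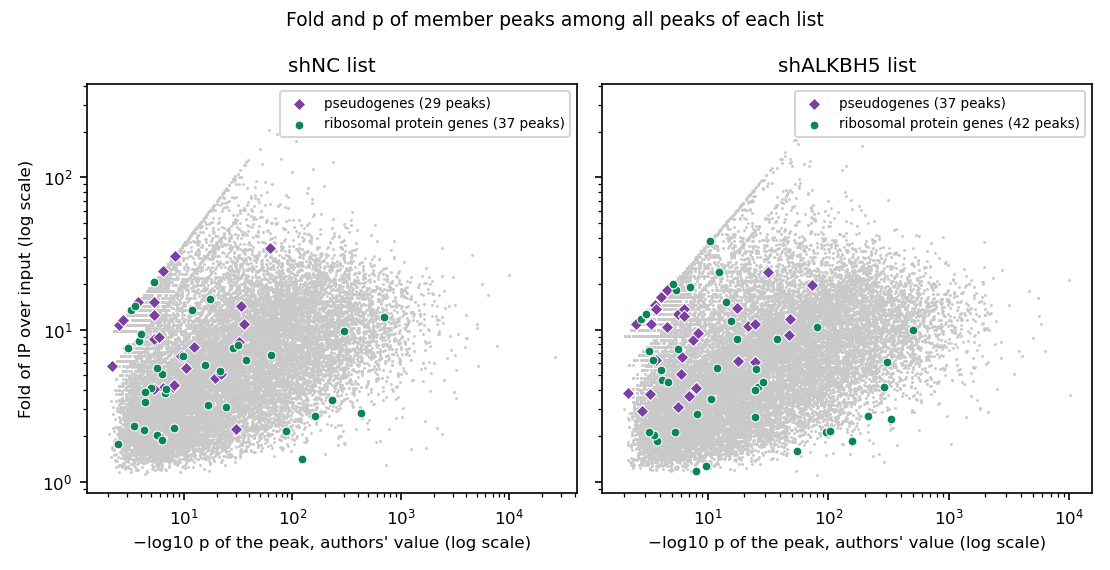
Fold of IP over input (y axis) against −log10 p (x axis), both on log scales, for all peaks with a number for p in each list (grey), parent peaks (green circles) and pseudogene peaks (purple diamonds). Pseudogene peaks gather at the left with folds near 10, and many parent peaks with a small p lie low in the cloud, the lowest parent peaks being at folds of 1.4 (shNC) and 1.17 (shALKBH5).

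The pseudogenes with peaks came from 20 families, and in 11 of these, with 22 of the 33 pseudogenes, the parent gene had no peak in either list. Over all 84 parent genes, 49 had no peak, a share near that of the 11 in 20 families. RPSA, which encodes the small subunit protein also known as the laminin receptor, led by count with 5 of 74 pseudogenes (RPSAP9, RPSAP26, RPSAP33, RPSAP41 and RPSAP70). RPL12 followed with 4 of 50 and RPL23A with 4 of 95, and neither parent gene nor RPSA had a peak. By share the highest families were RPS9 (1 of 4), RPL4 (1 of 7) and RPL23 (1 of 10). Over all ribosomal protein pseudogenes, 33 of 1936 (1.7%) had a peak in either list. In 9 of the 20 families the parent gene had a peak as well, as with RPL4 and RPL4P6, RPS10 and RPS10P7, or RPS9 and RPS9P1.

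Most of the strong pseudogene peaks lay on bases that the same list also gave to another gene. The strongest was at RPS20P21 on chromosome 8, with 343 bases at 73982125 to 73982467 in both lists, folds of 34.6 (shNC) and 19.7 (shALKBH5) and log10 p of -61.9 and -72.7. All 343 bases lay within a peak of TMEM70, a gene for a mitochondrial ATP synthase assembly factor, whose folds were 30.4 and 18.6 with log10 p of -63.2 and -74. RPL12P28 on chromosome 10 had folds of 10.9 and 23.8, and 92.2% and 93.3% of its bases lay within peaks of ANKRD16 with folds of 12.2 and 54.3. RPL32P29 lay inside the span of RPS29 on chromosome 14, and its peaks, with folds of 4.79 and 6.11, shared 362 and 403 bases with the inner peak of RPS29, with 5.35 and 5.52. That pair puts the same bases under a pseudogene and a parent name, and no other member peaks did so.

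RPS9P1 on chromosome 21 shared its bases with CBR3-AS1 on the opposite strand, and the values ran in step, with folds of 5.58 and 6.24 for shNC and 10.9 for both names for shALKBH5. RPL9P25, within TIPIN, a replication checkpoint gene, had folds of 4.21 and 6.18 beside 4.71 and 6.28 for TIPIN. RPSAP41 had 2 peaks for shNC, with folds of 4.16 and 7.69, and a single wider one for shALKBH5, with 10.5, over peaks of AC019205.1. RPSAP26 overlapped peaks of COMMD1, a regulator of copper and NF-κB, and had folds of 12.5 and 6.33 beside 20.1 and 10.3. In all, 11 of 29 shNC and 10 of 37 shALKBH5 pseudogene peaks (37.9%, 20.7 to 57.7%, and 27%, 13.8 to 44.1%) shared bases with a peak of another gene, against 15% of all peaks in either list. So did 5 of the 9 shNC and 6 of the 9 shALKBH5 pseudogene peaks with a log10 p below -10, against 16.2% and 16.7% of all peaks of that strength. For parent peaks the counts were 4 of 37 and 5 of 42. Counting RefSeq gene spans as well, 20 of 29 and 23 of 37 pseudogene peaks overlapped another gene, such as KANK1 at RPL12P25, MRTFA at RPL4P6 and CSNK1A1 at RPL29P14.

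Other pseudogenes had 1 shared, weak peak in each list: RPL12P10 at folds of 24.1 and 19, RPL23AP49 at 8.62 and 6.56 with identical borders, and RPL7P50 at 7.58 and 8.6. Those of RPSAP33, RPL4P6 and RPL29P14 had 11.6 and 10.9, 15.2 and 18.1, and 14.3 and 12.7, in the order shNC and shALKBH5.

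Strong pseudogene peaks away from other listed peaks were few. RPS10P7 on chromosome 1 had 2 overlapping entries in each list, at folds of 8.33 and 14.3 (shNC) and 11.8 and 9.23 (shALKBH5) and log10 p from -32.1 to -48. RPL23AP82 on chromosome 22 had 5.08 and 3.68, with log10 p of -22 and -6.93, and RPL23P2 on chromosome 21 had 8.92 and 13.8, with -5.89 and -17.3. RPS24P8 on chromosome 3 was the only pseudogene in 1 list alone with a log10 p below -10. It stood in the shNC list over bases 45159774 to 45159975 (fold 2.21, log10 p -30.1).

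Pseudogene peaks without a partner numbered 5 of 29 for shNC (17.2%, 5.85 to 35.8%) and 15 of 37 for shALKBH5 (40.5%, 24.8 to 57.9%), set against the 12.6% and 19.8% of all peaks given above. The shNC interval includes the share over all peaks. The shALKBH5 interval lies above that share, but it counts each entry as independent, and several entries without a partner came from the same pseudogene. An excess was therefore not established. With the weakest shALKBH5 peaks dropped so that both lists were equally long, the shALKBH5 count fell to 9 of 28 (32.1%, 15.9 to 52.4%), against 15.1% of all peaks. Of the 15 shALKBH5 peaks, 0 had a log10 p below -10, and 4 were entries of RPS4XP16, in 2 overlapping pairs, with folds of 13.6 to 16.3. RPL13P5 had 2 further ones, with folds of 5.13 and 2.9, beside a shared peak with 6.69 for shNC and 4.15 for shALKBH5. RPS2P32 and RPS2P7, copies of RPS2, stood in the shALKBH5 list alone, as the parent did, with folds of 11.8 and 3.85 and log10 p of -2.78 and -2.16. RPL26P30 had 3.12 for shALKBH5 alone, and RPL12P37, RPL23AP81, RPL29P23, RPL9P29 and RPS6P8 had folds from 10.4 to 14.5 there. The 5 shNC peaks without a partner were those of RPS24P8, RPL6P27 (1.93), RPSAP70 (10.7), RPS4XP16 (11.6) and RPSAP9 (15.2), and the shALKBH5 peak of RPSAP9 (12.7) did not overlap the shNC one. RPL39P34 was listed for shNC alone (5.8), on bases where the shALKBH5 list has a peak of ZNF808. RPL12P25 had 2 overlapping entries per list, with a fold of 30.3 for both shNC entries and 12.7 and 12.2 for shALKBH5, and RPL23AP53 had 4.35 and 4.08 (shNC) and 9.5 and 3.75 (shALKBH5). Pseudogenes are so short, with a median span of 700 bp for shNC and 699 bp for shALKBH5, that a position near their start is not informative.

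**Figure D4:**
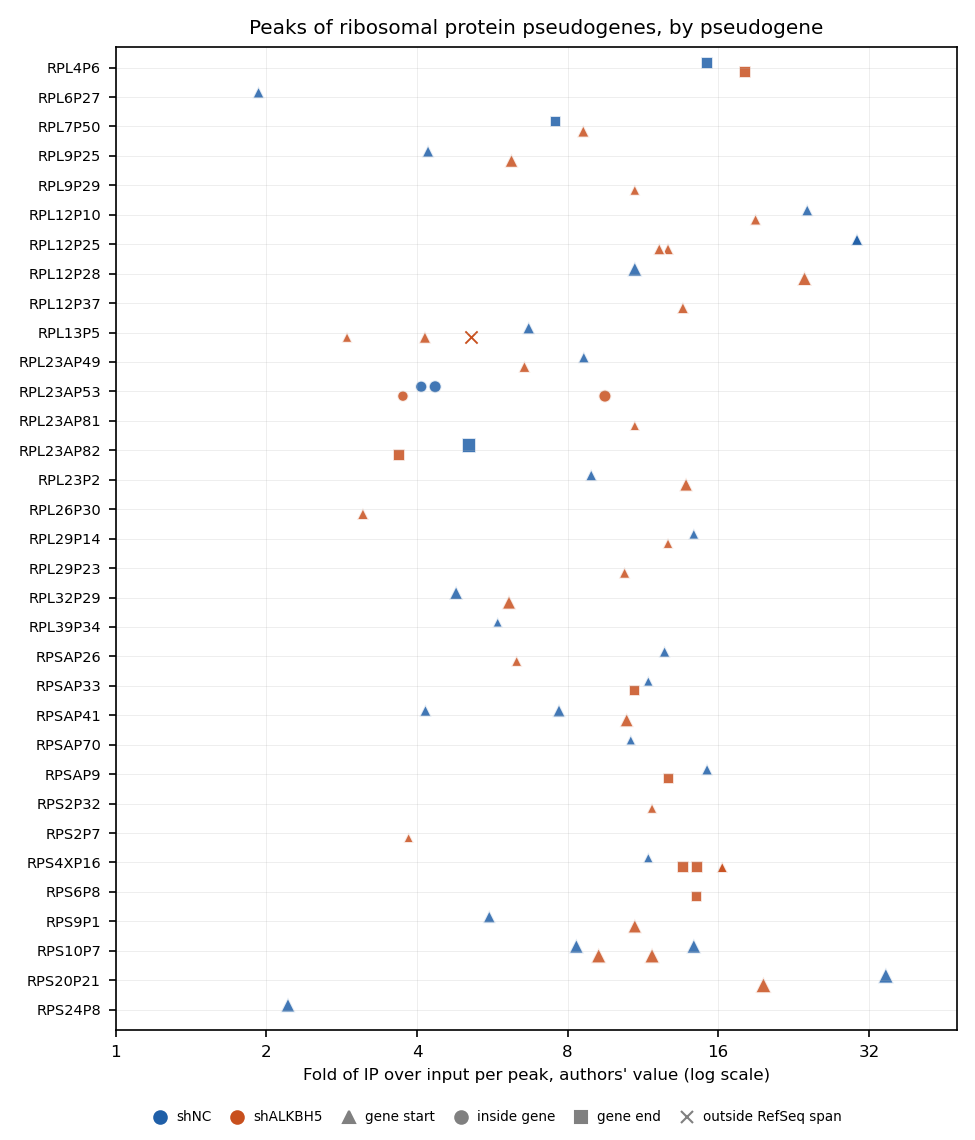
Fold of IP over input (x axis, log scale) of each of the 29 shNC and 37 shALKBH5 peaks of 33 ribosomal protein pseudogenes (y axis), with symbol shape for the position and larger symbols for a smaller p. RPS20P21 has the highest fold, 34.6 for shNC, most other symbols are small, and 44.8% of the shNC and 62.2% of the shALKBH5 symbols lie at a fold of 10 or more.

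Ribosomal protein genes RPL36AL and FAU, whose symbols fall outside the name patterns, had peaks in both lists. RPL36AL, a paralogue of RPL36A, had folds of 5.19 (shNC) and 4.25 (shALKBH5) with log10 p of -1110 and -694, a smaller p than that of any parent peak of the same list. FAU, which encodes a ribosomal protein fused to a ubiquitin-like protein, had folds up to 3.14 (shNC) and 3.56 (shALKBH5). Of 18 other TOP mRNAs, 9 had peaks in both lists, NAP1L1 and VIM only for shNC, EEF1B2 and HNRNPA1 only for shALKBH5, and EEF1A1, EIF3E, EIF3H, NPM1 and PABPC1 in neither. The elongation factor EEF2 had the smallest p of them, with folds of 5.77 and 5.09 and log10 p of -5170 and -3450, followed by TPT1, with folds of 7.49 and 5.1 and log10 p of -900 and -1220. Of 30 ribosome biogenesis genes, 21 had peaks in both lists, HEATR3, NOP58, RRP12 and UTP20 only for shNC and RRP9 only for shALKBH5. The nucleolar protein genes NCL (4.69 and 4.5), NOP56 (6.53 and 7.71) and RRS1 (17.5 and 19.5) had the smallest p of that list in both conditions. For comparison, 44.4% of all RefSeq protein-coding genes had an shNC peak and 47.1% an shALKBH5 peak. Of all genes of either list, 5.5% had peaks for shNC alone and 11.5% for shALKBH5 alone.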

How the data were processed

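One IP and 1 input library per condition lie behind each peak list. The authors deposited 1 list per condition, with hg38 blocks, strand and gene name, and, per the file headers, columns for a fold enrichment, a p-value and, as score values, the log10 of the p-value and of its FDR. The log10 p is missing for 2 shNC peaks and 1 shALKBH5 peak, and the log10 FDR, not used here, for 1079 and 1109. Tools listed in the submitters' processing notes, with no role or order, are HOMER 4.9.1, BWA 0.7.12 and fastp 0.19.11, beside the build hg38. For the peak caller, the strand of the reads and the treatment of multiply aligned reads: not given in the sources used here. With no read counts in the lists, the depth behind each peak is unknown.

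Members were matched by symbol, partners by at least 1 shared base between blocks, and gene starts and ends by RefSeq GRCh38.p14 spans. That table gives spans without exons, so exon or intron is not stated. End peaks are all others whose 3′ edge falls under 1000 bp from the gene end. Computation used Python 3.11.15, pandas 2.3.3, numpy 2.4.6 and SciPy 1.17.1. Intervals are exact (Clopper-Pearson) 95% binomial intervals. Named by rule were every parent gene with a peak (some items are counted but not reported here by name), the 10 pseudogenes with the smallest p per list, pseudogenes with 2 or more peaks in a list, those in 1 list alone with a log10 p below -10, those of parents with start peaks, and up to 4 genes of each other list by p. Other pseudogenes and list genes were named after their values were seen. The members and gene lists were chosen with earlier results of these data known. The matching was tested on simulated peaks. Alternatives were the overlap needed, stricter p and fold limits, lists of equal length and the distance from the gene start.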

Additional observations from a re-analysis of the deposited data

How the results depend on the processing

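Of 42 recomputed values, 28 stayed within 1.5 times the reported count and 14 did not. Keeping peaks with a log10 p below -10 left 14 parent genes for shNC and 19 for shALKBH5, 8 pseudogenes in each list, and 1 and 7 parent peaks at the gene start. With that limit, and partners from the full other list, parent peaks without a partner numbered 0 (shNC) and 3 (shALKBH5), and pseudogene peaks 1 and 0. For pseudogene peaks without a partner, a 50% reciprocal overlap gave 9 for shNC, a fold of at least 2 times the lowest of the list gave 3 for shNC, and lists of equal length gave 9 for shALKBH5. A limit of 100 bp from the gene start left 8 shALKBH5 parent peaks. No paired analysis was possible because each condition had 1 IP and 1 input library. Without read counts or replicates, a peak missing from 1 list cannot be told apart from one just under the limit of detection.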

Other observations

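Several weak member peaks carried exactly the same fold and log10 p as many other peaks of their list. RPL27A, the RPS29 start peak, RPL29P14 and RPSAP9 all stood at 12.7 and -3.03 in the shALKBH5 list, a pair of values shared by 165 peaks. Pairs shared by 10 or more peaks made up 31% and 32.4% of pseudogene peaks, 13.5% and 11.9% of parent peaks, and 10.8% and 11.8% of all peaks, for shNC and shALKBH5 in turn. Ribosomal protein introns host many snoRNA genes. A base shared with a RefSeq snoRNA gene was found for 0 of all peaks in either list. The check thus had no positive case anywhere, and nothing about snoRNA genes at member peaks is concluded from it.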
